A study of Mus musculus with 64 samples.

Results

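Within the colon arrays of BXD mice kept on a high-fat diet (HFD), the level of Fabp6 differed widely between strains, and the strains at both ends of that range are compared here over all other genes. Arrays with a log2 intensity of Defa24, a Paneth cell defensin of the small intestine, of 12 or more were set aside, which left 27 of 30 BXD HFD arrays. These were ranked by log2 Fabp6, and the 9 highest (high Fabp6 arrays) were set against the 9 lowest (low Fabp6 arrays), so that 18 of the 64 arrays of the series entered the main comparison. The 9 arrays between them (middle arrays) were not compared. The arrays were thus chosen by their measured Fabp6 and Defa24, so the values of these genes on HFD are a description with no test.

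Every array held RNA of 1 inbred strain on 1 diet, pooled from about 5 male mice of 29 weeks, and no allele was engineered. The BXD strains are recombinant inbred lines of C57BL/6J and DBA/2J. The HFD was eaten from week 8 on, and fat made up 60.3%, carbohydrate 21.4% and protein 18.3% of its calories. In the chow diet (CD), given to other mice of the same strains, these shares were 18%, 58% and 24%. All mice were fasted and refed for 4 h before a piece of proximal colon was taken, and its RNA was read on a mouse Clariom S array. A pool has no spread between its animals, so the errors given are spreads between strains. The high Fabp6 strains were BXD48, BXD48a, BXD51, BXD45, BXD32, BXD34, BXD55, BXD64 and BXD84, in falling order, and the low Fabp6 strains were BXD8, BXD67, BXD11, BXD90, BXD27, BXD40, BXD6, BXD87 and BXD89. BXD48 and BXD48a are closely related strains. The strain labels of the BXD87, BXD89 and BXD90 arrays, all in the low group, were put in doubt by an earlier analysis of these data.

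Fabp6 encodes the cytosolic bile acid binding protein of ileal enterocytes, the cells that recover most conjugated bile acids. Bile acids enter these cells through SLC10A2, are carried by FABP6 and leave through the SLC51A and SLC51B exporter at the base of the cell. They also bind the nuclear receptor FXR, encoded by Nr1h4, which pairs with RXR and switches on Fabp6, Slc51a, Slc51b, Nr0b2 and Fgf15. A high Fabp6 level in colon RNA can therefore be read beside genes of ileal identity, of bile acid signalling and of inflammation, and the groups below were compared over each of these.

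FXR binds inverted repeats of a short half-site spaced by 1 base, the element called IR-1. The promoters of Fabp6 and Slc51b are shown because each holds such a repeat within the window from 250 bases before to 50 bases after the RefSeq start, and Slc51b is the bile acid gene with the largest difference between the groups. Capitals mark the IR-1 match, found on either strand with a form of the motif that was widened until it took in the repeat of Fabp6. Fabp6 lies on the minus strand of chromosome 11 and its window covers 43601513 to 43601812 in GRCm38.p6. That of Slc51b covers 65422724 to 65423023 on the minus strand of chromosome 9.
Fabp6: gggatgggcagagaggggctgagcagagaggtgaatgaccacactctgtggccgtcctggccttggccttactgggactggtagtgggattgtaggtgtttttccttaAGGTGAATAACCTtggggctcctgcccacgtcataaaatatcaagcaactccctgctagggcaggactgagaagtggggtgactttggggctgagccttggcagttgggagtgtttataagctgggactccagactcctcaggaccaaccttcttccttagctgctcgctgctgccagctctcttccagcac
Slc51b: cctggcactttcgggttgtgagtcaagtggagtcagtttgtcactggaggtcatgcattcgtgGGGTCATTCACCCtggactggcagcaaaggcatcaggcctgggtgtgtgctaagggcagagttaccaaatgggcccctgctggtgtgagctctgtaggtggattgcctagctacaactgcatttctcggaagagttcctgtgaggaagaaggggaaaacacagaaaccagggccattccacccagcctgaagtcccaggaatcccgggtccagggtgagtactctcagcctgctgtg
The match starts 142 bases before the start of Fabp6 and 187 bases before that of Slc51b. It was present in 59 of 32851 windows of this length over all genes (0.18%). Of 17 bile acid and FXR genes other than Fabp6 with a window, 1 held it, Slc51b, and 0 of 29 ileal genes did. A match is a description of the letters and no evidence of binding.

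Fabp6 had a log2 intensity of 10.21 to 13.17 in the high arrays (median 10.90), against 5.65 to 7.60 in the low arrays (median 7.15). The means were 11.09 ± 0.94 in the high arrays and 6.98 ± 0.64 in the low arrays (SD, n = 9 each). The last array taken into the high group, BXD84, stood at 10.21 and the next one left out, BXD79, at 9.70. At the other end BXD8 was taken at 7.60 and BXD75 left out at 7.99, so no gap in the values separates either group from the middle arrays. Defa24 was 5.35 to 9.76 in the high arrays and 5.37 to 7.30 in the low arrays. In the 3 HFD arrays set aside it was 15.77 to 19.57.

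**Figure D1:**
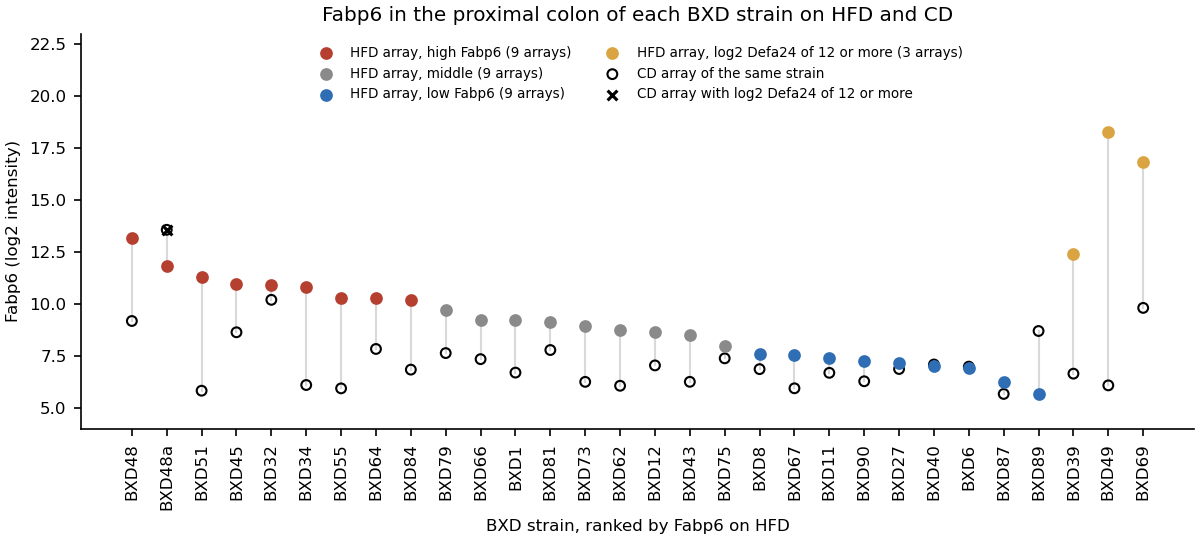
Fabp6 (log2 intensity, vertical axis) in every BXD strain, with HFD arrays as filled points coloured by group and the CD array of the same strain as an open circle. Ranked HFD values run from 13.17 in BXD48, with BXD48a next at 11.83, to 5.65 in BXD89. No gap sets either group apart from the middle arrays, and the 3 arrays rich in Defa24 stand at the right.

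The samples carried the genes of a colon mucosa in both groups. The mean over 19 colonocyte genes was 12.97 to 13.66 in the high arrays and 12.73 to 13.86 in the low arrays, and that over 15 goblet cell genes 14.43 to 15.36 in high and 14.84 to 15.30 in low. Muc2, the main colonic mucin, read 19.88 to 19.93 in the high arrays, near the top of the scale, where differences cannot be seen. Array medians were 6.67 to 6.74 in the high group and 6.66 to 6.72 in the low group, and each array's median correlation with the other HFD arrays was 0.972 to 0.977 in high and 0.972 to 0.979 in low. BXD40, a low array, stood apart in tissue. It read 9.21 for Hoxb13, a homeobox gene of the distal colon, against 5.30 in the next low array, and 9.15 for the mean of 15 pancreas and adipose genes, where the high arrays read 6.11 to 6.78. BXD8, also a low array, had a mean of 8.74 over 29 interferon response genes, where the high arrays read 6.78 to 7.87.

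Over all genes but Fabp6, 0 of 19502 passed an adjusted p of 0.05 in limma (0.0% called, smallest adjusted p = 0.515). At an unadjusted p under 0.05, 724 genes were higher (3.71%) and 666 lower (3.42%) in the high Fabp6 arrays. These percentages are the background for every count below, and the median difference over all genes was 0.0077 on the log2 scale. Fewer cells of a type and less RNA per cell cannot be told apart in RNA of whole tissue. Only Emc10, a subunit of the complex that inserts membrane proteins into the endoplasmic reticulum, had groups that did not overlap (0.00513% of genes). It was 8.74 to 9.51 in the high arrays and 9.62 to 10.32 in the low arrays, a difference of -0.64 with a standard error of 0.14 (adjusted p = 0.515 by limma). No list has a test of its own, and the counts are set beside the background.

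A straight line through all 27 eligible arrays, scaled to the gap between the group means of Fabp6, was the 1 fit over the whole ranking and called 6 genes (0.0308%). Along it Naaladl1, a peptidase of small intestinal absorptive cells, was higher with Fabp6 by 1.65 (adjusted p = 0.0229 by limma) and Col4a3, a chain of basement membrane collagen, by 0.86 (adjusted p = 0.036). Col4a3 read 5.05 to 6.72 in the high arrays, with BXD48 highest, and 4.25 to 5.41 in the low arrays. In every eligible array but BXD48 it lay below every array median, toward the low end of the scale. Lower with Fabp6 were Spdef, a transcription factor of goblet and Paneth cell maturation (-1.48, adjusted p = 0.0229), the unconventional myosin gene Myo3a (-0.94, adjusted p = 0.0164) and Gstp2, a glutathione transferase (-0.77, adjusted p = 0.036). The sixth was 1810055G02Rik (-0.81, adjusted p = 0.0432). All 6 differed in the same direction between the end groups, where none passed. The arrays of the end groups are among the 27, so this shared direction is no separate support. The line was not refitted without BXD48, the highest array at 13.17, or BXD87 and BXD89, the lowest at 6.23 and 5.65. Between the end groups with BXD87, BXD89 and BXD90 left out and the ranking redone, Spdef differed by -0.91 in place of -1.22. Myo3a then differed by -0.68 in place of -0.87, Gstp2 by -0.39 in place of -0.71 and Col4a3 by 0.52 in place of 0.72. Gstp2 and Gstp1 are close copies, and array probes may read both.

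Among bile acid genes the difference was largest for the exporter subunit Slc51b and small for the FXR target Fgf15. Of 20 bile acid and FXR genes 0 were called, 2 were higher at an unadjusted p under 0.05, 0 were lower, and the list median was 0.02. Slc51b was 13.31 to 14.26 in the high arrays (median 13.66), against 11.27 to 13.74 in the low arrays (median 12.73). All 9 high arrays lay above the low median and 3 above every low array, so the groups overlapped. The difference was 0.97 with a standard error of 0.28 (adjusted p = 0.584 by limma).

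Nr1h4, the FXR gene itself, was 10.81 to 11.89 in the high arrays (median 11.34) and 10.31 to 11.65 in the low arrays (median 10.77), a difference of 0.55 (standard error 0.18, adjusted p = 0.625 by limma). Again every high array lay above the low median. Slc10a2, the apical bile acid importer, read 12.54 to 14.10 in the high arrays and 10.80 to 13.44 in the low arrays, and only 4 of 9 high arrays were above the low median. Its difference of 0.51 was 0.28 without BXD40, the array at 10.80, and that of Slc51a was 0.12 in place of 0.32. BXD40 was also the lowest low array for Slc51b and Nr1h4, at 11.27 and 10.31. Without it the difference of Slc51b was 0.79 in place of 0.97 and that of Nr1h4 0.49 in place of 0.55. Slc51a, the other exporter subunit, was 11.69 to 12.85 in the high arrays and 10.42 to 12.68 in the low arrays.

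Fgf15 and Nr0b2, which FXR also switches on, differed little between the groups. Fgf15, the hormone by which the ileum restrains hepatic bile acid synthesis, was 3.71 to 4.75 in the high arrays and 3.41 to 5.04 in the low arrays, a difference of 0.05 (standard error 0.20). These values lie below every array median (6.66 to 6.74), toward the low end of the scale, where a difference may not be seen. Nr0b2, the FXR-induced repressor SHP, was 6.62 to 8.72 in the high arrays and 6.83 to 8.11 in the low arrays, with means of 7.55 ± 0.58 in high and 7.56 ± 0.52 in low (SD, n = 9 each). Gpbar1, the bile acid receptor at the cell surface, averaged 4.81 ± 0.38 in the high arrays and 4.85 ± 0.49 in the low arrays (SD, n = 9 each). Abcc3, a basolateral exporter that the colon also uses, averaged 13.88 ± 0.49 in high and 14.22 ± 0.53 in low. None of these was called, and the sign of the Fgf15, Nr0b2 and Gpbar1 differences turned under other settings.

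The ileal and small intestinal enterocyte list leaned to higher values with Fabp6, and its members were not alike. Of 37 ileal and small intestinal enterocyte genes 0 were called, 7 were higher at an unadjusted p under 0.05 and 0 lower, and 27 had a positive difference with a list median of 0.11. Anpep, the brush border aminopeptidase N, was 7.35 to 9.54 in the high arrays (median 8.69) and 7.03 to 8.17 in the low arrays (median 7.48). In 7 of 9 high arrays it lay above every low array, and the difference was 1.07 with a standard error of 0.25 (adjusted p = 0.515 by limma). Enpep, the aminopeptidase A of the same border, was 7.67 to 10.30 in the high arrays and 7.28 to 9.96 in the low arrays, a difference of 1.11 (standard error 0.36, adjusted p = 0.621). BXD55 was the high array that stood low for it, at 7.67.

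Naaladl1 was 6.45 to 9.17 in the high arrays (median 8.37), against 4.79 to 7.68 in the low arrays, a difference of 1.41 (standard error 0.40, adjusted p = 0.584 by limma). BXD87 and BXD89, at 5.03 and 4.79, were the lowest, and with BXD87, BXD89 and BXD90 left out and the ranking redone its difference was 0.91. Slc7a9, part of the cystine and dibasic amino acid transporter, was 5.86 to 6.63 in the high arrays and 5.23 to 6.11 in the low arrays, a difference of 0.53. Mep1b, the meprin beta protease, chosen after its values were seen, was 12.90 to 14.70 in the high arrays and 12.97 to 13.81 in the low arrays, a difference of 0.69. In 6 of 9 high arrays Mep1b lay above every low array, and 1 lay below all low arrays.

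Other defining genes of the small intestine had smaller differences, and their groups overlapped as those of the genes above did. Sis, the sucrase-isomaltase of the brush border, was 7.35 to 9.65 in the high arrays and 6.64 to 10.61 in the low arrays, with BXD90 at the top of the low group. Apoa4, an apolipoprotein of chylomicrons, was 7.16 to 8.83 in high and 6.53 to 10.14 in low. Apoa1 averaged 5.65 ± 1.32 in high and 5.14 ± 0.64 in low (SD, n = 9 each), and its high arrays were split. It lay above every low array (at most 6.22) in 4 of 9, BXD34, BXD45, BXD32 and BXD48a, at 6.60 to 7.54. In 1 high array Apoa1 lay below all low arrays. Alpi, the intestinal alkaline phosphatase, differed by 0.08, Cubn, a receptor for vitamin B12 with intrinsic factor, by 0.42 (0.10 without BXD87, BXD89 and BXD90), Slc34a2, a phosphate transporter, by 0.28 and Gata4, a transcription factor of the proximal small intestine, by 0.02. None of these passed. The 19 colon position genes, mostly Hox genes, had a list median of -0.04 with 0 higher and 0 lower at an unadjusted p under 0.05.

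**Figure D2:**
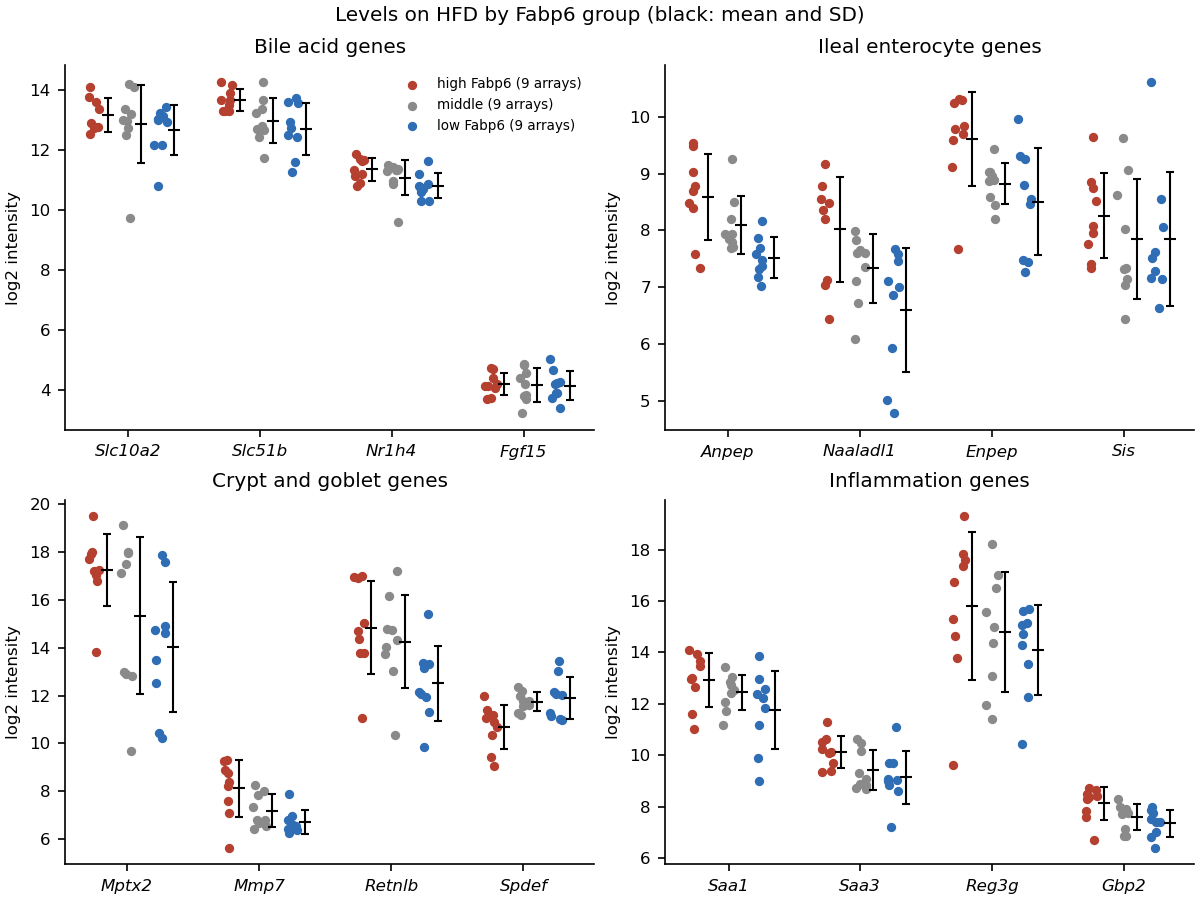
Log2 intensity (vertical axis) of 16 genes in high, middle and low Fabp6 HFD arrays, each point 1 array and each bar the mean and SD. Slc51b, Anpep, Naaladl1 and Mptx2 sit higher in the high arrays with overlap, Spdef lower, and Fgf15 and Sis overlap throughout.

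Among the genes named, the largest differences lay in secreted genes of crypts, though none passed. Of 13 Paneth cell genes 0 were called, 6 were higher at an unadjusted p under 0.05, 0 lower, and all 13 differences were positive with a median of 0.40. Mptx2, a secreted pentraxin, was 13.81 to 19.48 in the high arrays (median 17.22), against 10.24 to 17.85 in the low arrays (median 14.59), a difference of 3.19 (standard error 0.85, adjusted p = 0.558 by limma). Its close copy Mptx1, chosen after its values were seen, differed by 3.78 (standard error 0.92, adjusted p = 0.515), and probes may read both genes. With BXD87, BXD89 and BXD90 left out and the ranking redone the difference of Mptx2 was 1.83 and that of Mptx1 2.26. For both genes BXD32 was the high array that stood lowest.

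Mmp7, the matrilysin that activates defensins in mouse Paneth cells, was 5.66 to 9.30 in the high arrays (median 8.39) and 6.25 to 7.91 in the low arrays (median 6.60), a difference of 1.40 (standard error 0.36, adjusted p = 0.52 by limma). In 6 of 9 high arrays it lay above every low array, while BXD48a at 5.66 lay below all low arrays and BXD48 read 7.11. Without BXD48a the difference was 1.71 and passed (adjusted p = 0.0347), and without both related strains, a setting chosen after seeing the data, it was 1.90 (adjusted p = 0.00239). Ang5, an angiogenin of the same antimicrobial family as Ang4, was 5.16 to 7.74 in the high arrays and 4.41 to 6.04 in the low arrays, a difference of 1.12 that was 0.61 with BXD87, BXD89 and BXD90 left out.

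The defensins that define Paneth cells were low in both groups. Defa17, Defa21, Defa22, Defa26 and Defa30 together spanned 3.20 to 8.66 in the high arrays and 3.20 to 8.42 in the low arrays. Lyz1, the Paneth cell lysozyme, was 7.17 to 9.81 in high and 7.68 to 9.27 in low. In the 3 arrays set aside for Defa24, Lyz1 read 15.87 to 18.13. Between the high and low arrays the ranges of these defensins and of Lyz1 overlapped.

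Genes of the cecum and proximal colon included several secreted products. Of 9 on the array 0 were called, 4 were higher at an unadjusted p under 0.05, 0 lower, and 7 differences were positive with a median of 0.58. Retnlb, a goblet cell protein that binds bacteria, was 11.05 to 16.98 in the high arrays (median 14.68), against 9.85 to 15.40 in the low arrays (median 12.16), a difference of 2.32 (standard error 0.69, adjusted p = 0.584 by limma). Ang4, an antimicrobial ribonuclease, was 12.24 to 19.64 in high and 10.35 to 17.94 in low, a difference of 2.57 (standard error 0.94). Itln1, a sugar-binding lectin, chosen after its values were seen, was 8.52 to 19.87 in high and 6.20 to 16.31 in low, so that the spread within a group exceeded its difference of 3.46. With BXD87, BXD89 and BXD90 left out Itln1 differed by 1.46 and Ang4 by 1.70. Mcpt1, a mucosal mast cell protease, was 6.20 to 12.90 in the high arrays and 4.05 to 7.39 in the low arrays, with BXD55 alone above 7.98. Retnlb stood on 3 of the lists and Itln1 on 2, so these counts are not independent.

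Goblet cell regulators had differences of the opposite sign. Of 15 goblet cell genes 0 were called, 1 was higher (Retnlb) and 3 lower at an unadjusted p under 0.05, with a median of -0.11. Spdef was 9.07 to 11.97 in the high arrays (median 10.90), against 10.99 to 13.43 in the low arrays (median 12.04), a difference of -1.22 (standard error 0.36, adjusted p = 0.584 by limma). No high array reached the low median, and 5 lay below every low array. Atoh1, the transcription factor that commits crypt cells to the secretory fate, was 8.60 to 10.71 in high and 9.71 to 11.11 in low, a difference of -0.67 (standard error 0.22). Secretory regulators and secreted crypt products had differences of opposite sign, and none of them passed between the end groups.

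Among inflammation genes the serum amyloids averaged higher in the high Fabp6 arrays without passing, and Reg3 genes spread widely within each group. Of 24 acute phase and antimicrobial genes 0 were called, 5 were higher at an unadjusted p under 0.05, 0 lower, and 21 differences were positive with a median of 0.27. Saa3, an acute phase amyloid made in tissue, was 9.36 to 11.30 in the high arrays (median 10.13), against 7.21 to 11.09 in the low arrays (median 9.04), a difference of 1.00 (standard error 0.35, adjusted p = 0.627 by limma). Every high array lay above the low median. Saa1 was 11.01 to 14.08 in high and 9.01 to 13.86 in low, a difference of 1.16 (standard error 0.51, adjusted p = 0.672), and Saa2, chosen after its values were seen, differed by 0.85. With BXD87, BXD89 and BXD90 left out the Saa1 difference was 0.38, that of Saa2 0.24 and that of Saa3 0.675. Saa1, Saa2 and Saa3 are related copies, and probes may read more than 1 of them.

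Reg3g, a lectin that kills Gram-positive bacteria, was 9.63 to 19.30 in the high arrays (median 16.73), against 10.43 to 15.69 in the low arrays (median 14.73), a difference of 1.71 (standard error 0.92, adjusted p = 0.714 by limma). In 5 high arrays it lay above every low array and in 1 below all of them. Reg3b, its neighbour gene, was 13.19 to 19.92 in high and 11.28 to 19.44 in low, with BXD51 lowest in the high group. Its difference of 1.47 was 0.77 without BXD40, and 5 of 9 high arrays read 19.59 or more, near the top of the scale, where differences cannot be seen. Pla2g2a, a secreted antimicrobial phospholipase, averaged 12.09 ± 3.31 in high and 10.30 ± 2.71 in low, and Nos2, the inducible nitric oxide synthase, 6.11 ± 0.83 in high and 5.58 ± 0.50 in low (SD, n = 9 each). Ccl28, a mucosal chemokine that draws plasma cells, was 10.09 to 10.96 in high and 9.51 to 10.80 in low, a difference of 0.55 (standard error 0.17).

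The interferon list was centred near 0, with 3 members apart. Of 29 interferon response genes 3 were higher at an unadjusted p under 0.05 and 0 lower, with 0 called and a median of -0.02. The 3 were Gbp2, a guanylate-binding GTPase (0.78), Iigp1, an immunity-related GTPase (0.99), and the chemokine Cxcl9 (0.96), which all answer to interferon gamma. Gbp2 was 6.71 to 8.75 in the high arrays and 6.42 to 7.98 in the low arrays, and in 6 of 9 high arrays it lay above every low array. Without BXD8, the low array with the highest list mean, the differences were 0.84 for Gbp2 and 1.14 for Iigp1. BXD55 was the highest high array for Iigp1 at 8.33 and for Cxcl9 at 9.38, where the high medians were 6.42 and 6.66. The differences of Iigp1 and Cxcl9 therefore rest in part on BXD55 and are smaller without it. Of 7 MHC class II genes 2 were higher, H2-DMb1 (0.79) and H2-Eb1 (0.56), with 0 lower and a median of 0.22, and without BXD55 these differences were 0.50 and 0.34. Immune cell lists showed little. Of 18 macrophage and neutrophil genes 0 were higher and 1 lower (Cx3cr1), of 11 T cell genes 0 and 0, and of 16 B cell, plasma cell and follicle genes 0 and 2 (Cd79b and Cd22).

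**Figure D3:**
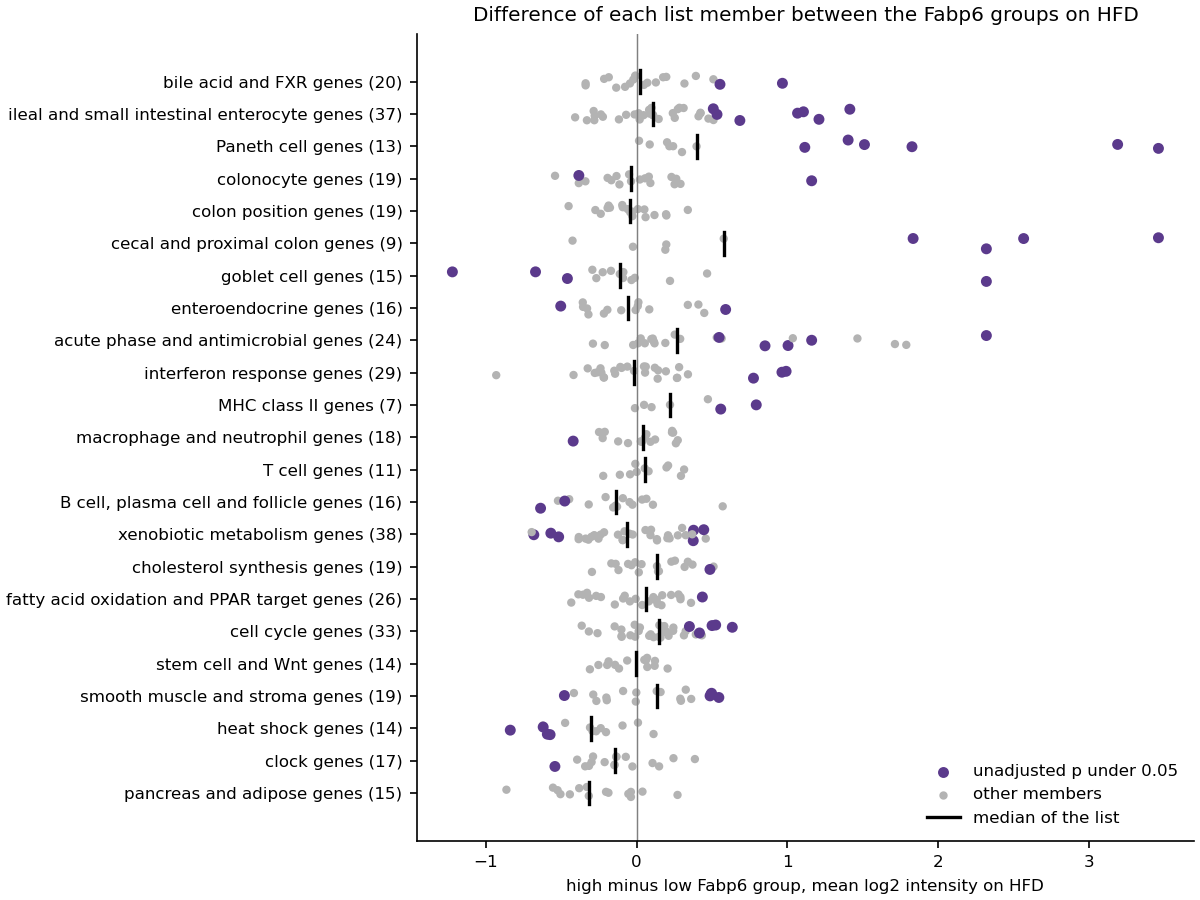
Difference of every list member between high and low Fabp6 HFD arrays (log2, horizontal axis), with larger dark points for an unadjusted p under 0.05, a black line at each list median and the number of members on the array in parentheses. Right of 0 lie 13 of 13 Paneth cell, 7 of 9 cecal, 21 of 24 acute phase, 10 of 20 bile acid and 2 of 14 heat shock genes, and the dark points of the bile acid list are Slc51b and Nr1h4.

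Set side by side, the ileal, bile acid and inflammation genes did not mark the same arrays throughout. The mean of the ileal list lay above every low array in 5 of 9 high arrays, BXD32, BXD45, BXD48, BXD48a and BXD84. That of the acute phase list did so in 6, BXD32, BXD34, BXD45, BXD48a, BXD55 and BXD84, and that of the bile acid list in 3, BXD32, BXD48 and BXD84. The mean over all genes tested did so in 2, BXD45 and BXD48. Ileal and acute phase means were both above in 4 arrays, and all of the ileal, acute phase and bile acid means in 2, BXD32 and BXD84. Some of these margins were very small. The bile acid mean was 8.23 in BXD32 and 8.24 in BXD84, against 8.22 in BXD6, the highest low array. The ileal mean was 8.38 in BXD84 and 8.39 in BXD48, against 8.36 in BXD6. The Paneth list mean was above in 6 arrays, BXD34, BXD45, BXD48, BXD48a, BXD55 and BXD64, and BXD51 was above on none of these 4 lists.

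With log2 Reg3g as a covariate, Naaladl1 differed by 1.47, Enpep by 1.01, Anpep by 0.80 and Slc51b by 0.87. Without it these differences were 1.41, 1.11, 1.07 and 0.97. Such a fit holds the level of this lectin gene fixed, not inflammation as a whole, and Saa1 still differed by 0.91 in place of 1.16. Saa3 then differed by 0.80 in place of 1.00 and Mptx2 by 3.84 in place of 3.19. Reg3b, which follows Reg3g closely, differed by -0.096 in place of 1.47. With log2 Defa24 as a covariate Anpep differed by 0.95, Naaladl1 by 1.34 and Slc51b by 1.05, while Apoa1 differed by 0.15 in place of 0.51. No gene was called in either fit. When all 30 BXD HFD arrays were ranked with no limit on Defa24, Anpep differed by 3.18 and Enpep by 2.15, since the arrays rich in Defa24 then entered the high group.

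**Figure D4:**
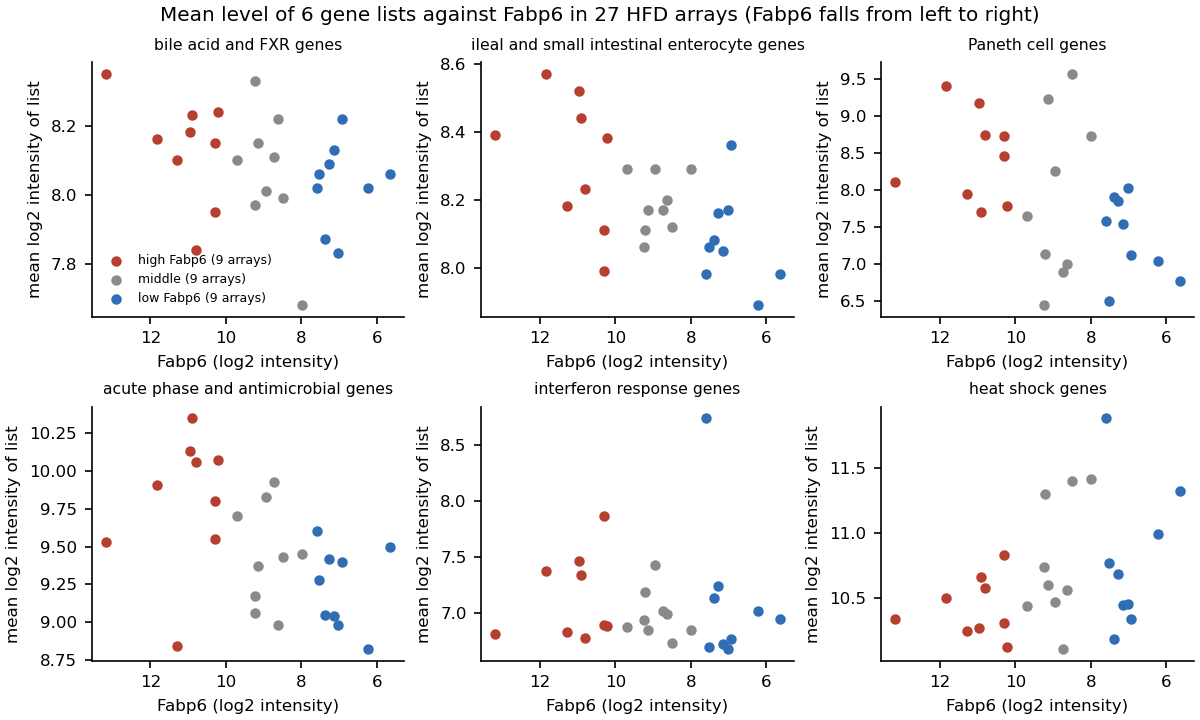
Mean log2 intensity of 6 gene lists (vertical axes) against log2 Fabp6 (horizontal axis, high values at the left) in 27 HFD arrays, coloured by group. Ileal and Paneth cell means are mostly higher at the left with overlap, bile acid means span 7.84 to 8.35 in the high arrays and 7.83 to 8.22 in the low arrays, and BXD8 stands alone at 8.74 on the interferon list.

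Cell cycle and smooth muscle lists held members that were higher, and heat shock genes were mostly lower, with none called. Of 33 cell cycle genes 5 were higher and 0 lower at an unadjusted p under 0.05, with a median of 0.15, among them Nusap1, a spindle protein (8.21 ± 0.43 in high, 7.57 ± 0.33 in low), and the proliferation marker Mki67 (11.90 ± 0.29 in high, 11.40 ± 0.48 in low). With BXD87, BXD89 and BXD90 left out and the ranking redone Mki67 differed by 0.36 in place of 0.50. Top2a, also on this list, then differed by 0.18 in place of 0.52, and Nusap1 by 0.60 in place of 0.64. Of 14 heat shock genes 0 were higher and 4 lower at that p, 2 differences were positive and the median was -0.30, and the list mean lay above the low median in 1 of 9 high arrays. Among them the cytosolic chaperone Hsp90aa1 differed by -0.84 and Hspb1, a small heat shock protein, by -0.59. Hsp90aa1 was highest in the low arrays BXD8 (17.52), BXD87 (16.67) and BXD89 (16.55). Its group medians were 14.79 in high and 15.09 in low, and without BXD8 it differed by -0.60. Of 19 smooth muscle and stroma genes 4 were higher, Acta2, the smooth muscle actin, by 0.50 and Mylk, the myosin kinase, by 0.55, and 1 lower, the collagen gene Col1a2, by -0.48. With BXD87, BXD89 and BXD90 left out Acta2 differed by 0.30 and Col1a2 by -0.22. The mean of this list had a median of 12.44 in the high arrays and 12.43 in the low arrays, and the part of muscle in other results was not tested.

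Of 38 xenobiotic metabolism genes 3 were higher and 3 lower, with a median of -0.06. Ces2a, a carboxylesterase, was 12.59 to 13.83 in the high arrays and 12.59 to 15.31 in the low arrays, a difference of -0.68 that was -0.16 with BXD87, BXD89 and BXD90 left out, while Ces2b differed by 0.45. Alas1, the first enzyme of haem synthesis, averaged 13.57 ± 0.68 in high and 14.26 ± 1.14 in low, and Cyp2c55, a colonic cytochrome P450, 17.74 ± 0.41 in high and 18.12 ± 0.58 in low (SD, n = 9 each). The differences of -0.70 for Alas1 and -0.38 for Cyp2c55 were -0.13 and 0.063 without those 3 arrays. Cholesterol synthesis, with 1 of 19 higher (Stard4, a sterol carrier, 0.49, and 0.31 without those 3 arrays), and fatty acid oxidation and PPAR target genes, with 1 of 26 higher (Cyp4a14, 0.44, and 0.24 without them), had 0 lower. The colon surface genes Slc26a3, a chloride exchanger, Car4, a carbonic anhydrase, and Aqp8, a water channel, differed by 0.23, -0.54 and -0.34, and without those 3 arrays Car4 differed by -0.14 and Aqp8 by -0.145. The 19 colonocyte genes had 1 higher, Saa1, and 1 lower, Scnn1g, with a median of -0.04. Of 17 clock genes 0 were higher and 1 lower, Npas2, with a median of -0.15, and the 15 pancreas and adipose genes had 0 in either direction and a median of -0.32, with BXD40 apart as given above. Stem cell and Wnt genes had 0 of 14 in either direction, and 16 enteroendocrine genes had 1 higher, Sst, and 1 lower, Tph1.

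Outside the lists, the genes with the smallest p in the comparison were higher Olfr1157 (0.99), Bcl2l15 (0.97), Olfr1250 (0.78), Sntn (0.70) and Cartpt (0.59) beside Anpep, and lower Ccdc85c (-0.71), Nlrp4a (-0.65) and Dalrd3 (-0.64) beside Emc10, Myo3a and Gstp2. All had an adjusted p of 0.515 by limma and none passed. Without BXD48a, Olfr1157, an olfactory receptor gene, was called together with Mmp7. In the high and low arrays Olfr1157, Bcl2l15, Sntn and Nlrp4a lay below every array median, toward the low end of the scale, as Fgf15 did. Over the 27 eligible arrays the patterns most like that of Fabp6 were those of Col4a3 (Pearson r = 0.72), Cartpt (0.71), Naaladl1 (0.71), Usp29 (0.68), Nxt2 (0.66), Pum2 (0.66), Slc25a4 (0.65) and Btnl5-ps (0.65). The most opposed were Myo3a (-0.78), Calr, a chaperone of the endoplasmic reticulum (-0.75), Eef1g, a translation elongation factor (-0.74), and Gstp2 (-0.74). These were the extremes of 19502 coefficients over arrays that also set the groups, so they are given with no p. Usp29 too lay below every array median, and so did Col4a3 in all arrays but BXD48.

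The CD arrays of the same strains were not used in the choice, so Fabp6 can be tested there. One CD array of a high strain, BXD48a, was rich in Defa24 (log2 of 12 or more) and was left out. On CD, Fabp6 averaged 7.57 ± 1.65 in the strains of the high group (SD, n = 8), against 6.79 ± 0.87 in those of the low group (SD, n = 9). The difference was 0.78, and an exact permutation test over 24310 regroupings gave p = 0.233 (two-sided). BXD32 at 10.20 and BXD48 at 9.18 had the highest CD values of the high strains, while BXD51 read 5.83 on CD and 11.29 on HFD.

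Across 26 BXD strains with both arrays under the Defa24 limit, Fabp6 on HFD and on CD gave Pearson r = 0.325 (permutation p = 0.106, 100000 resamples, two-sided) and Spearman rho = 0.169 (permutation p = 0.404). This was 1 relation, so no adjustment was made. Without BXD32 and BXD48, the strains farthest from the CD median, r was -0.015, so what relation there was rested on them. A strain's place in the HFD ranking was therefore not shown on CD at this number of strains.

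Over all genes, 0 of 19503 were called on CD between the strains of the groups (0.0%), with 1260 at an unadjusted p under 0.05 (6.46%), 629 of them higher (3.23%) and 631 lower (3.24%) in the strains of the high group. The ileal list had 5 higher and 0 lower of 37 on CD, with a median of 0.11, and the acute phase list 5 higher and 1 lower of 24, with a median of 0.12. For the cell cycle list the counts on CD were 8 higher and 0 lower of 33, with a median of 0.18. Here Reg3g averaged 14.35 ± 1.69 in the strains of the high group (SD, n = 8) and 11.99 ± 0.88 in those of the low group (SD, n = 9), a difference of 2.36 (adjusted p = 0.468 by limma). Reg3b differed by 2.17, Sis by 1.08 and Mep1b by 0.63. On CD Saa3 differed by -0.26, Mptx2 by 0.14, Mmp7 by 0.36 and Spdef by 0.17, none of them past the threshold.

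The HFD minus CD change within each strain was compared last. The groups were set on the HFD arrays, and some genes were named for their difference there. Such a choice favours a larger difference on HFD than on CD, so these changes alone cannot show a dependence on diet. Of 19502 genes 0 were called (0.0%, smallest adjusted p = 0.128 by limma), and 1892 had an unadjusted p under 0.05 (9.7%). The change was greater in the high strains for Mmp7 by 1.35 (adjusted p = 0.245), for Mptx2 by 2.77 (adjusted p = 0.343) and for Saa3 by 1.25 (adjusted p = 0.338). It was less for Spdef by -1.36 (adjusted p = 0.335) and for Car4 by -1.34 (adjusted p = 0.362). For Slc51b the changes differed by 0.54, for Naaladl1 by 0.63 and for Reg3g by -0.90, none past the threshold.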

How the data were processed

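The deposited table holds log2 intensities that the authors made from Clariom S arrays with Affymetrix Power Tools (background corrected, normalised and summarised over probes, per the methods); 1 array per strain and diet, 64 in all, 22199 probesets and no missing value. The deposited values were used on that log2 scale with no further normalisation. Probesets with 1 symbol in the platform annotation (19570) were taken to the median per gene, 19503 genes. Genes named in the lists and absent there (49 of 497 entries) were not analysed here. Arrays carry no count, so depth has no meaning and the number of strains limits the precision.

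BXD HFD arrays with log2 Defa24 under 12 were ranked by Fabp6 and the 9 highest set against the 9 lowest. Groups were compared with limma 3.58.1 (R 4.3.3) and Benjamini-Hochberg adjustment over all genes, threshold 0.05, on HFD (without Fabp6), on CD, and on the HFD minus CD difference within a strain, which pairs arrays by their strain label. Fabp6 on CD was tested by exact permutation, and its relation between diets with 100000 permutations. The limma steps were tested on simulated data. Genes were named by a rule: 35 core genes on the array (of 37 listed), the 6 smallest p per direction where none passed, up to 3 members per list at an unadjusted p under 0.05, and the genes most and least like Fabp6. The groups, the 23 lists and the core genes were chosen with earlier results of these data known. Alternatives changed the normalisation, filter, variance model, group size, Defa24 limit, covariates and arrays. IR-1 matches were sought in RefSeq promoters (GRCm38.p6).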

Additional observations from a re-analysis of the deposited data

Results flagged for a closer look

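In groups of 9 arrays, 15 single arrays stood further from the nearest other array of their group than Dixon's 95% critical value allows, out of 188 groups examined for 94 named genes. Chance flags about 1 in 20 groups. No explanation was tested for any of them.

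In the high Fabp6 group, BXD32 read 12.05 for Mptx1 (next lowest 15.25) and 13.81 for Mptx2 (next 16.78). BXD55 read 7.67 for Enpep (next lowest 9.12), 12.90 for the mast cell protease gene Mcpt1 (next highest 7.98) and 12.17 for H2-Eb1 (next highest 10.76). BXD51 read 13.19 for Reg3b (next lowest 16.58), BXD84 6.82 for Gata4 (next highest 5.87) and BXD48a 18.33 for Acta2 (next highest 17.98).

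In the low Fabp6 group, BXD40 stood apart on 3 genes, at 9.21 for Hoxb13 (next highest 5.30), 10.80 for Slc10a2 (next lowest 12.19) and 10.42 for Slc51a (next lowest 11.54). BXD8 read 7.91 for Mmp7 (next highest 6.99), BXD90 10.61 for Sis (next highest 8.56), BXD11 5.25 for Nlrp4a (next highest 4.71) and BXD87 17.04 for Eef1g (next highest 16.87).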

How the results depend on the processing

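The HFD comparison called 0 genes in the main setting and in 30 of 33 alternatives. It called 6 with the slope over all 27 arrays, 0 to 2 when single arrays were left out (2 without BXD48a, Mmp7 and Olfr1157) and 1 without both BXD48 and BXD48a (Mmp7), a setting chosen after seeing the data. The number at an unadjusted p under 0.05 was 1127 to 1687 when single arrays were left out. With parental arrays eligible the same 18 arrays were chosen. The CD comparison called 0 genes under all 8 alternatives and the comparison of changes 0 under all 9. Restricted to the upper 60% of genes, fewer genes were tested and the numbers at an unadjusted p under 0.05 were 790 on CD and 1255 for the change. The main comparison of changes pairs arrays by strain. With no replicate block, that is with strain pairing dropped, it called 0 genes (smallest adjusted p = 0.229), so the block changed no call.

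Fabp6 on CD kept its direction and stayed above the threshold of 0.05 in all alternatives, with a difference of 0.41 to 1.03 (exact permutation p = 0.121 to 0.475) when single arrays were left out and of 1.45 (exact permutation p = 0.117) with the Defa24-rich array kept. Pearson r between diets was 0.293 to 0.359 over the alternatives.

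Of the 94 named genes, 81 kept the sign of their difference throughout and 13 did not, all of them uncalled. For these the cause was not tested. With single arrays left out the differences ranged from -0.045 to 0.16 for Fgf15, from -0.16 to 0.11 for Nr0b2, from -0.13 to 0.048 for Gpbar1, from -0.038 to 0.20 for Alpi, from -0.12 to 0.14 for Gata4, from -0.75 to 0.066 for Hoxb13 and from -0.15 to 0.18 for Lyz1. With 8 arrays a group they were 0.037 for Nr0b2, -0.036 for Alpi, -0.076 for Gata4 and -0.13 for Lyz1. With 10 a group they were 0.027 for Gpbar1, -0.053 for Gata4 and -0.046 for Lyz1. Along the slope they were -0.036 for Fgf15, 0.027 for Gpbar1, -0.095 for Gata4 and -0.23 for Lyz1. With arrays centred on their median they were -0.00094 for Gata4 and -0.0027 for Lyz1, and after quantile normalisation -0.046 for Gata4 and 0.00203 for Muc2. With Defa24 as a covariate they were -0.094 for Alpi, -0.092 for Gata4, -0.0045 for Slc26a3 and -0.11 for Lyz1, and with Reg3g as a covariate 0.12 for Nr0b2, -0.0028 for Alpi, -0.072 for Gata4, -0.096 for Reg3b and -0.0398 for Lyz1. With no limit on Defa24 they were 0.071 for Gpbar1, 1.44 for Apoa4 and -0.054 for Gata4. Without BXD87, BXD89 and BXD90 they were -0.035 for Fgf15, 0.077 for Gpbar1, -0.15 for Slc34a2, 0.063 for Cyp2c55 and -0.055 for Lyz1. Without BXD48a and with the ranking redone they were 0.036 for Nr0b2 and -0.015 for Gata4, and without BXD48 and BXD48a 0.19 for Nr0b2 and -0.024 for Slc34a2. Over the upper 60% of genes by mean level the list medians were 1.26 for Paneth cell genes (0.40 over all members), 1.21 for cecal genes (0.58) and 0.71 for acute phase genes (0.27). Nothing here can be read from genes near the top of the scale, and 18 pools limit what can pass.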
